A study of Mus musculus with 12 samples.

Results

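Cytosolic sulfotransferases (SULT enzymes) move a sulfate group onto hormones, bile acids, neurotransmitters and foreign phenols. The sulfate comes from PAPS, an activated donor made in the cell by PAPS synthases, and the sulfated product is as a rule more water soluble and no longer binds the receptor of the parent hormone. In mouse liver the estrogen sulfotransferase gene Sult1e1 is known for a very low basal level and for a rise when the glucocorticoid receptor is activated. The genes described here are 8 sulfotransferases, Sult1e1, Sult1d1, Sult1b1, Sult1a1, Sult1c2, Sult2a8, Sult3a1 and Sult5a1. They were chosen by name, as listed sulfotransferase genes that have counts in these libraries, with earlier results of the same libraries known. Those results included the level of Sult1e1 in hypoxia without drug. All 8 had counts and all 8 passed the filter on low counts, among 54838 gene identifiers and 13861 that passed the filter.

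The mRNA libraries came from livers of C57BL/6J mice, in 4 groups of 3 biological replicates. Hypoxia_DEX mice breathed 7% O2 for 24 h and were injected with 10 mg/kg of dexamethasone (DEX), a drug that activates the glucocorticoid receptor. Hypoxia_PBS mice breathed 7% O2 for 24 h and were injected with saline buffer (PBS). Normoxia_DEX mice breathed 21% O2 and received DEX at 10 mg/kg, and Normoxia_PBS mice breathed 21% O2 and received PBS. All livers were taken 2 h after injection, so the DEX comparisons describe a 2 h response. The tissue was whole liver, so fewer cells of a type and less RNA per cell cannot be told apart.

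Libraries held between 12464687 and 24715995 counts. The summed level of 8 hepatocyte markers was between 109000 and 147000 CPM (read counts relative to the scaled library size) in every library, and 5 acinar markers had no counts at all. Xist, a marker of female cells, lay between 517 and 962 CPM, and 4 Y-linked genes had no counts in any library. The 7 Kupffer cell markers summed to between 110 and 121 CPM in Hypoxia_DEX and between 105 and 134 CPM in Hypoxia_PBS. They summed to between 328 and 470 CPM in Normoxia_DEX and between 315 and 414 CPM in Normoxia_PBS. In hypoxia 7 of 7 were called lower under either injection, against 22.2% of all tested genes under DEX and 16.8% under PBS. The 5 cholangiocyte markers summed to 22.7 to 36.1 CPM in Hypoxia_DEX, 23.9 to 44.7 CPM in Hypoxia_PBS, 31.3 to 37.4 CPM in Normoxia_DEX and 43.1 to 65.1 CPM in Normoxia_PBS, and 6 adipocyte markers summed to at most 6.59 CPM in any library. The part of these cell types in the oxygen results was not tested. Among replicates, Hypoxia_DEX-1 and Hypoxia_DEX-3 were far more alike than any other pair, with a chi-square per gene of 1.79 against 10.54 to 38.45. This measure sets the difference between libraries against read sampling alone, and only this pair came near that level. The counts cannot tell whether these libraries are separate mice, so the number of independent replicates in Hypoxia_DEX rests on the labels. On the second principal component Hypoxia_DEX-2 scored 9.22 against 21.52 and 21.39 for its group, and Hypoxia_PBS-1 scored -6.36 against -25.48 and -22.24.

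Sult1e1, Sult1d1 and Sult1b1 lie next to each other on chromosome 5, all on the minus strand, and they are the 3 of the 8 genes that rose in hypoxia under DEX in the test given further on. On mm10, with GENCODE M21 gene models, Sult1e1 (ENSMUSG00000029272) spans chr5:87575969-87591594, Sult1d1 (ENSMUSG00000029273) spans chr5:87554645-87569027, and Sult1b1 (ENSMUSG00000029269) spans chr5:87513339-87538195. Over all 12 libraries they collected 13278, 77723 and 7513 reads in that order. The other protein-coding models within 150 kb of the Sult1e1 start are Ugt2a1, Ugt2a2, Gm43638, Csn1s1 and Csn2, and none of these had a read in any library. The promoter windows of the 3 genes are shown because the genes are neighbours and share a direction under hypoxia. They are RefSeq windows of 300 bases on GRCm38.p6 around the annotated start, read 5′ to 3′ on the gene's strand. For Sult1b1 the upstream of 2 windows, the one at the GENCODE start, is shown. Windows were found for 8 of the 8 genes, 10 windows in all. Capitals mark the nuclear receptor motif AGGTCA or the hypoxia response core GCGTG on either strand.
Sult1e1, chr5:87591562-87591861, minus strand: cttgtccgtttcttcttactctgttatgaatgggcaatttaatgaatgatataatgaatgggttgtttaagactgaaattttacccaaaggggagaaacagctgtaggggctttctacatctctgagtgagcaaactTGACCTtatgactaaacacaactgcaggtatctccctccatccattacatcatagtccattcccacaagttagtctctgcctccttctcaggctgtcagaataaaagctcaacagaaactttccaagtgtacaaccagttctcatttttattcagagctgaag
Sult1d1, chr5:87568957-87569256, minus strand: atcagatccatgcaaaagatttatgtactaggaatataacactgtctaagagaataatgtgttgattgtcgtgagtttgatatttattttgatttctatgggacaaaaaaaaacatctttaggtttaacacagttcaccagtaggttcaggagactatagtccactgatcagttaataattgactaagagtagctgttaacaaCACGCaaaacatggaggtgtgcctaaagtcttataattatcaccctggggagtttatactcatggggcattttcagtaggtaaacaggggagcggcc
Sult1b1, chr5:87538146-87538445, minus strand: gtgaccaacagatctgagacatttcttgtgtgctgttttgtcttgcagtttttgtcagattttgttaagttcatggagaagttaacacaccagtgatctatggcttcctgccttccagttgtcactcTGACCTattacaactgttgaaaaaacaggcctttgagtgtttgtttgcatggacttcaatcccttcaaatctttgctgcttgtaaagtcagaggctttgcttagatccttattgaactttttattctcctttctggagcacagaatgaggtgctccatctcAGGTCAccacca

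The Sult1e1 window held AGGTCA once, at position -113 from the annotated start, and the Sult1d1 window held GCGTG once, at position -47. The Sult1b1 window held AGGTCA at positions -123 and 39. Counting both strands, AGGTCA was in 3 of 10 windows of the family and in 16.3% of 32851 windows of all genes. GCGTG was in 2 of 10 windows, against 32.4% of all windows. The other hypoxia response core, ACGTG, and the E-box CACGTG, which contains it, were in 0 of 10 windows, against 19.6% and 7.15% of all windows. The full glucocorticoid response element searched, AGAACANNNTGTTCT, was in 0 of 10 windows and in 0.00913% of all windows, while its first 6 letters, AGAACA, were in 3 of 10, against 19%. Those 3 windows belonged to Sult1a1, Sult1c2 and the downstream start of Sult1b1, not to Sult1e1 or Sult1d1. These letters describe the windows and are not evidence of binding.

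**Figure D1:**
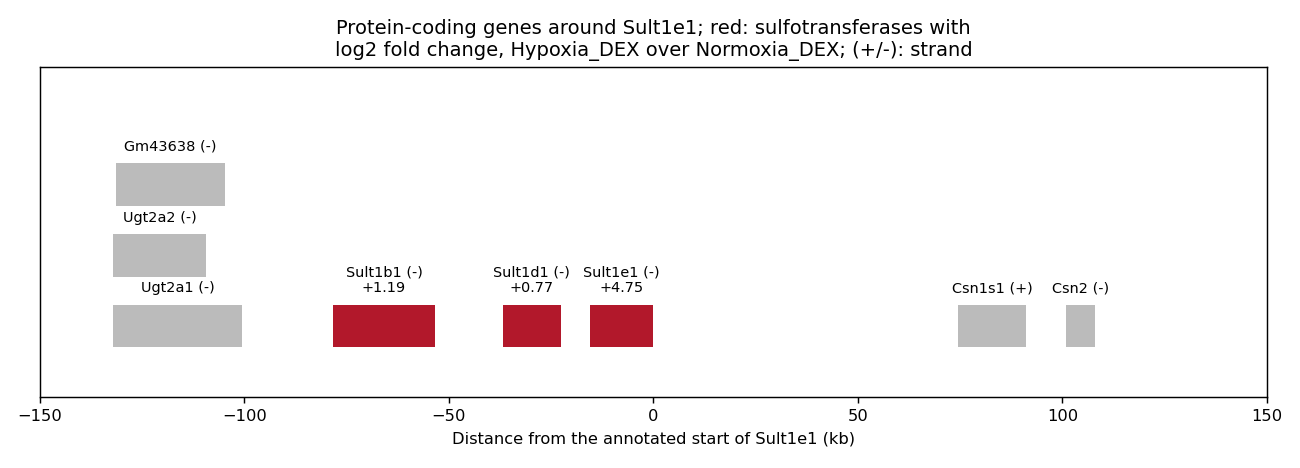
Protein-coding genes within 150 kb of the annotated Sult1e1 start, drawn to scale with distance in kb on the horizontal axis and sulfotransferases in red. The log2 fold changes printed above them, 1.19 for Sult1b1, 0.77 for Sult1d1 and 4.75 for Sult1e1, compare Hypoxia_DEX with Normoxia_DEX, and the grey genes had no reads.

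The other members lie elsewhere. Sult1a1 (ENSMUSG00000030711, chr7:126672865-126676432) and Sult2a8 (ENSMUSG00000030378, chr7:14410686-14446769) are on chromosome 7, Sult1c2 (ENSMUSG00000023122, chr17:53829637-53846339) is on chromosome 17, Sult3a1 (ENSMUSG00000069668, chr10:33857721-33879532) is on chromosome 10 and Sult5a1 (ENSMUSG00000000739, chr8:123140192-123158315) is on chromosome 8. Sult1a1 overlaps Sgf29, Sult5a1 overlaps Gm20388 and Sult3a1 overlaps the pseudogene Gm47935, each on the opposite strand. The strand setting of the counting is not given in the sources used here, so reads of these pairs may not be separated.

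Sult1e1, whose enzyme sulfates estradiol and estrone, had the widest range of the 8. It had 198, 145 and 213 CPM in Hypoxia_DEX, 134, 52.1 and 50.5 CPM in Hypoxia_PBS, 3.17, 12.4 and 4.41 CPM in Normoxia_DEX, and 0.869, 0.204 and 0.725 CPM in Normoxia_PBS. The 4 groups did not overlap in this order, and in Normoxia_PBS the gene rested on 15, 4 and 11 reads. Normoxia_DEX-2 was the highest of its group, and Hypoxia_PBS-1 stood well above the other 2 Hypoxia_PBS libraries.

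Sult1d1, an enzyme for dopamine and other small amines and phenols whose human counterpart is a pseudogene, was abundant throughout. It had 666, 517 and 678 CPM in Hypoxia_DEX, 379, 380 and 336 CPM in Hypoxia_PBS, 335, 411 and 343 CPM in Normoxia_DEX, and 151, 167 and 244 CPM in Normoxia_PBS. Hypoxia_PBS lay within the range of Normoxia_DEX, and both lay between Hypoxia_DEX and Normoxia_PBS. Sult1b1, which sulfates thyroid hormones, separated by oxygen level. It had 52, 42.6 and 54.9 CPM in Hypoxia_DEX and 55.6, 66.1 and 53.2 CPM in Hypoxia_PBS, against 19.7, 24.9 and 21.1 CPM in Normoxia_DEX and 22.8, 21.8 and 22.5 CPM in Normoxia_PBS. Every hypoxia library lay above every normoxia library, and within each oxygen level the injections overlapped.

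Sult2a8, a bile acid sulfotransferase of mouse liver, had the opposite order. It had 241, 291 and 259 CPM in Hypoxia_DEX and 236, 309 and 304 CPM in Hypoxia_PBS, against 515, 626 and 575 CPM in Normoxia_DEX and 575, 503 and 565 CPM in Normoxia_PBS. Sult5a1 had 3.37, 4.54 and 5.83 CPM in Hypoxia_DEX and 5.14, 5.18 and 4.5 CPM in Hypoxia_PBS, against 14.1, 13.4 and 11.3 CPM in Normoxia_DEX and 12.7, 10.3 and 10.5 CPM in Normoxia_PBS. For both genes every hypoxia library lay below every normoxia library. Sult1c2, a phenol sulfotransferase, had 2.43, 2.71 and 2.73 CPM in Hypoxia_DEX and 2.16, 2.99 and 3.69 CPM in Hypoxia_PBS, against 4.14, 6.38 and 4.48 CPM in Normoxia_DEX and 4.69, 6.78 and 6.66 CPM in Normoxia_PBS. Its hypoxia libraries were also all below its normoxia libraries, at 31 to 55 reads against 72 to 154 reads.

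Sult1a1, the main phenol sulfotransferase, and Sult3a1, which sulfates amines, did not separate by group. Sult1a1 had 324, 472 and 309 CPM in Hypoxia_DEX, 308, 486 and 351 CPM in Hypoxia_PBS, 386, 533 and 455 CPM in Normoxia_DEX, and 386, 442 and 545 CPM in Normoxia_PBS. Sult3a1 had 88.3, 174 and 100 CPM in Hypoxia_DEX, 244, 109 and 131 CPM in Hypoxia_PBS, 93.8, 63.3 and 97.7 CPM in Normoxia_DEX, and 117, 68.4 and 54.4 CPM in Normoxia_PBS. Both genes overlapped between every pair of groups that differ in 1 factor, and the highest Sult3a1 value was that of Hypoxia_PBS-1.

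**Figure D2:**
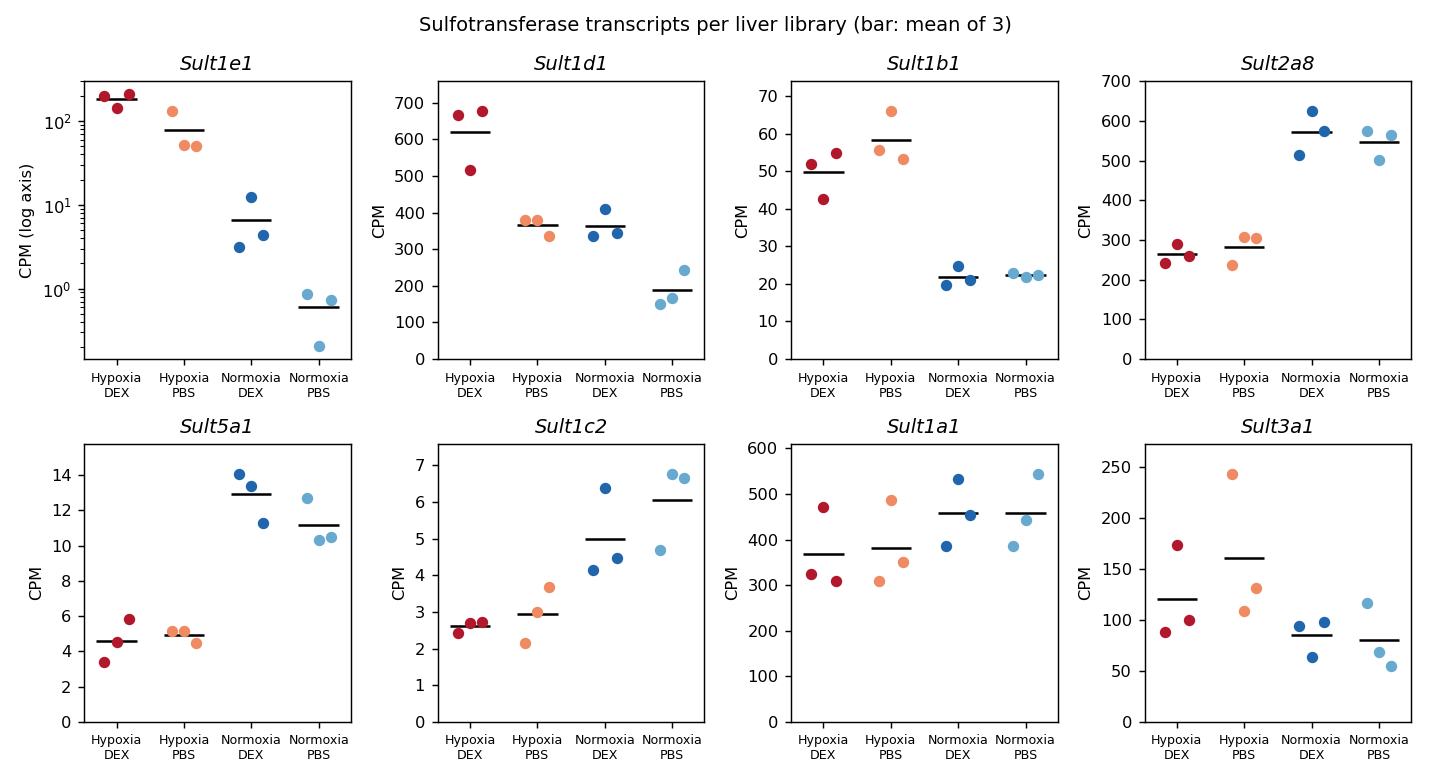
CPM of the 8 sulfotransferases in each of the 12 libraries by group, with a bar at the mean of 3; the Sult1e1 axis is logarithmic and the others start at 0. Sult1e1 averages 185, 79, 6.67 and 0.599 CPM from left to right, Sult1b1 is high in both hypoxia groups, and Sult2a8, Sult5a1 and Sult1c2 are low in both.

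To compare genes with each other, CPM was divided by the length of the annotated exons in kb. In Hypoxia_DEX the order per kb was Sult1d1 at 252 ± 36.4, Sult1a1 at 244 ± 60, Sult1e1 at 149 ± 28.4, Sult3a1 at 105 ± 40.3, Sult2a8 at 80.3 ± 7.83, Sult1b1 at 17.9 ± 2.3, Sult1c2 at 1.42 ± 0.0918 and Sult5a1 at 1.04 ± 0.278 CPM per kb (SD, n = 3). Sult1d1 overlapped with Sult1a1 there, Sult3a1 overlapped with both Sult1e1 and Sult2a8, and Sult1c2 overlapped with Sult5a1 by a single library. In Normoxia_PBS the order was Sult1a1 at 304 ± 53.4, Sult2a8 at 167 ± 11.8, Sult1d1 at 76.2 ± 20.3, Sult3a1 at 69 ± 28.2, Sult1b1 at 8.06 ± 0.189, Sult1c2 at 3.27 ± 0.634, Sult5a1 at 2.53 ± 0.305 and Sult1e1 at 0.483 ± 0.282 CPM per kb. Neighbours whose libraries overlapped there were Sult1d1 with Sult3a1 and Sult1c2 with Sult5a1. Sult1e1 was thus the third highest of the 8 per kb in Hypoxia_DEX and the lowest in Normoxia_PBS.

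Hypoxia against normoxia in PBS mice asks what low oxygen alone did, and it is given without a test because results of this comparison were known when the genes were listed. Sult1e1 averaged 79 ± 48 CPM in Hypoxia_PBS and 0.599 ± 0.35 CPM in Normoxia_PBS (SD, n = 3 each), a fitted log2 fold change of 7.07 (SE 0.81). Sult1b1 had a log2 fold change of 1.38 (SE 0.11), Sult3a1 of 1.02 (SE 0.42) and Sult1d1 of 0.96 (SE 0.17). The fitted log2 fold change was -1.18 (SE 0.17) for Sult5a1, -1.04 (SE 0.23) for Sult1c2, -0.95 (SE 0.12) for Sult2a8 and -0.26 (SE 0.21) for Sult1a1. The PBS groups did not overlap for 6 of the 8 genes and overlapped for Sult3a1 and Sult1a1. The median over the 8 genes was 0.35, against 0.01 over all tested genes. Without Hypoxia_PBS-1 the Sult1e1 value was 6.44, so the fold was lower by more than 1.5 times.

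Hypoxia against normoxia was then tested under DEX, in the 6 libraries of DEX-injected mice. Their group means are separate from those of the PBS comparison, but the spread was estimated over all 12 libraries. There 3 of 8 sulfotransferases rose in hypoxia, against 20.7% of all tested genes, and 3 of 8 fell, against 22.2%, at an adjusted p under 0.05 in the quasi-likelihood test of edgeR, adjusted by the Benjamini-Hochberg method. Sult1e1 averaged 185 ± 35.3 CPM in Hypoxia_DEX and 6.67 ± 5.03 CPM in Normoxia_DEX (SD, n = 3 each), a log2 fold change of 4.75 (SE 0.62, 95% confidence interval 3.33 to 6.17, adjusted p = 0.000377). Sult1b1 averaged 49.8 ± 6.41 CPM in Hypoxia_DEX and 21.9 ± 2.66 CPM in Normoxia_DEX, a 2.27-fold rise (log2 1.19, SE 0.11, adjusted p = 5.47e-06). Sult1d1 averaged 620 ± 89.6 CPM in Hypoxia_DEX and 363 ± 42.1 CPM in Normoxia_DEX, a 1.71-fold rise (log2 0.77, SE 0.17, adjusted p = 0.00278). All 3 genes of the chromosome 5 cluster were thus higher in hypoxia, in 3 of 3 libraries each without overlap, while their sizes of change differed.

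The genes that fell were the other 3. Sult5a1 averaged 4.58 ± 1.23 CPM in Hypoxia_DEX and 12.9 ± 1.49 CPM in Normoxia_DEX (log2 fold change -1.49, SE 0.17, adjusted p = 2.39e-05). Sult2a8 averaged 264 ± 25.7 CPM in Hypoxia_DEX and 572 ± 55.8 CPM in Normoxia_DEX (log2 fold change -1.12, SE 0.12, adjusted p = 1.05e-05). Sult1c2 averaged 2.62 ± 0.17 CPM in Hypoxia_DEX and 5 ± 1.21 CPM in Normoxia_DEX (log2 fold change -0.94, SE 0.23, adjusted p = 0.00518). Sult1a1 had a log2 fold change of -0.32 (95% confidence interval -0.81 to 0.18, adjusted p = 0.259). Sult3a1 had a log2 fold change of 0.51 (95% confidence interval -0.45 to 1.46, adjusted p = 0.356). Changes of this size in either gene were not detectable with 3 libraries per group. The median log2 fold change over the 8 genes was 0.1, against -0.02 over all tested genes. All 6 calls held under each of 19 alternatives, among them the sum of Hypoxia_DEX-1 and Hypoxia_DEX-3 as a single library. Without Normoxia_DEX-2 the Sult1e1 log2 fold change was 5.63, and with Hypoxia_DEX-2 and Hypoxia_PBS-1 left out Sult1a1 also passed (log2 fold change -0.51, adjusted p = 0.0475, against up to 0.588 over all alternatives).

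**Figure D3:**
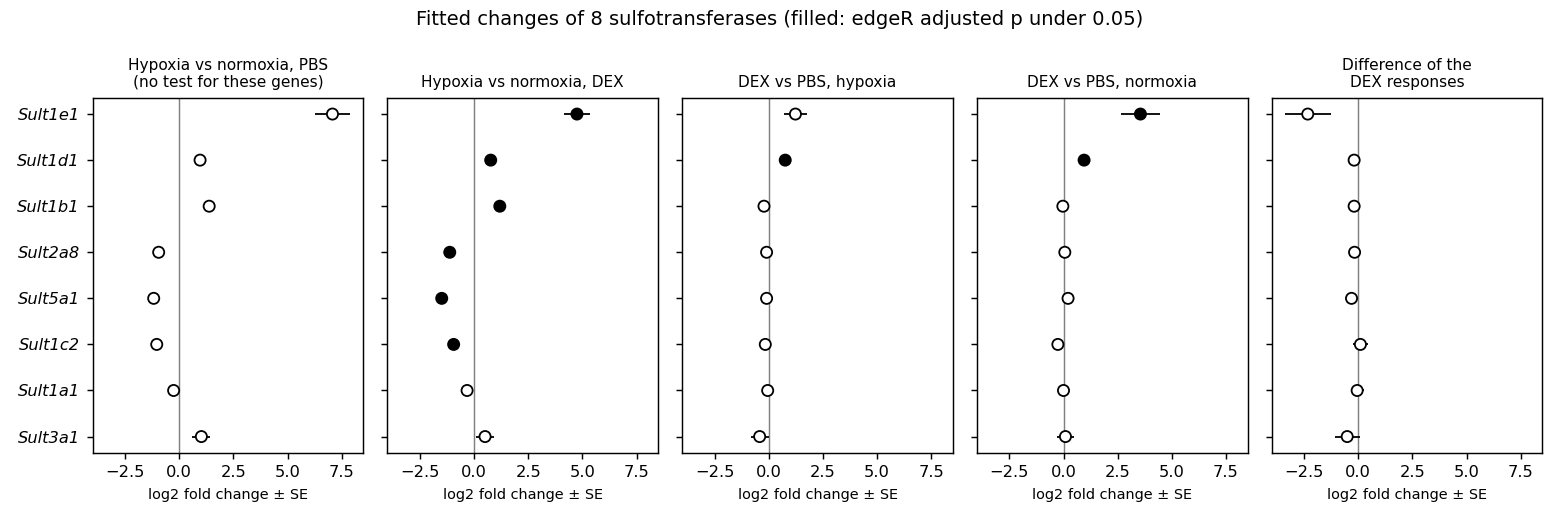
Fitted log2 fold changes ± SE of the 8 genes in 5 comparisons, with filled points for an adjusted p under 0.05 in edgeR's quasi-likelihood test and the first panel untested. Sult1e1 is at 4.75 for hypoxia under DEX and at 3.55 for DEX in normoxia, and Sult1d1 is filled in all 3 of the comparisons of 2 groups that were tested.

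DEX against PBS was compared at each oxygen level. In normoxia 2 of 8 genes rose, against 9.38% of all tested genes, and 0 of 8 fell, against 7.4%. The 2 were Sult1d1 and Sult1e1. Sult1d1 averaged 363 ± 42.1 CPM in Normoxia_DEX and 187 ± 49.9 CPM in Normoxia_PBS, a 1.94-fold rise (log2 0.95, SE 0.17, adjusted p = 0.00175 in edgeR's quasi-likelihood test), and the call held in 19 of 19 alternatives. Sult1e1 averaged 6.67 ± 5.03 CPM in Normoxia_DEX and 0.599 ± 0.35 CPM in Normoxia_PBS, a log2 fold change of 3.55 (SE 0.89, 95% confidence interval 1.51 to 5.6, adjusted p = 0.0258). The Sult1e1 call was lost in 6 of 19 alternatives, with adjusted p between 6.86e-06 and 0.0975 over all of them. It was lost with no count filter (0.0505), with the replicate number as a block (0.0579), and without Normoxia_DEX-2 (log2 fold change 2.68, adjusted p = 0.0756), Normoxia_PBS-1 (0.065), Normoxia_PBS-2 (0.0975) or Normoxia_PBS-3 (0.0686). For the other 6 genes the adjusted p lay between 0.428 and 0.998. The median over the 8 genes was 0.07 on the log2 scale, against 0 over all tested genes.

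In hypoxia 1 of 8 genes rose with DEX, against 6.13% of all tested genes, and 0 of 8 fell, against 7.05%. For both falls at 0, edgeR gave 0 genes at an unadjusted p under 0.05 and DESeq2 called 0. The gene that rose was again Sult1d1, at 620 ± 89.6 CPM in Hypoxia_DEX and 365 ± 25 CPM in Hypoxia_PBS (1.7-fold, log2 0.76, SE 0.17, adjusted p = 0.0102 in edgeR's quasi-likelihood test). Without Hypoxia_PBS-3 its adjusted p was 0.0509, with Hypoxia_DEX-1 and Hypoxia_DEX-3 summed it was 0.0382, and over all 19 alternatives it lay between 0.000165 and 0.0509. Sult1e1 averaged 185 ± 35.3 CPM in Hypoxia_DEX and 79 ± 48 CPM in Hypoxia_PBS, and its libraries did not overlap. Its log2 fold change of 1.23 (SE 0.52, 95% confidence interval 0.03 to 2.42) did not pass at an adjusted p of 0.171. That outcome turned on Hypoxia_PBS-1: without it the log2 fold change was 1.88 with an adjusted p of 0.034, and without both it and Hypoxia_DEX-2 it was 2.03 with an adjusted p of 0.0319. Over all 19 alternatives the adjusted p lay between 0.0319 and 0.388. The other 6 genes had adjusted p between 0.214 and 0.906. The median over the 8 genes was -0.1 on the log2 scale, against -0.01 over all tested genes.

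The interaction asks whether the DEX response differed between oxygen levels. It called 0 of 8 sulfotransferases, against 1.32% of all tested genes. In edgeR's test 0 of them had an unadjusted p under 0.05, and DESeq2 called 0. Sult1e1 had a difference of -2.33 on the log2 scale (SE 1.07, 95% confidence interval -4.8 to 0.15, unadjusted p = 0.0604, adjusted p = 0.434). Its interval covers both no difference and a far smaller relative response in hypoxia. Sult1d1 had a difference of -0.19 (95% confidence interval -0.73 to 0.35, adjusted p = 0.805), so the data bound any difference in its DEX response to under 1 log2 unit. All 3 of the comparisons with DEX against PBS share libraries with the untested comparison above, and their values are not independent of it. DEX in hypoxia shares the Hypoxia_PBS libraries, DEX in normoxia shares the Normoxia_PBS libraries with their 15, 4 and 11 Sult1e1 reads, and the interaction shares both groups.

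Across the 12 libraries, a description in which the points share groups and library scaling, Sult1e1 correlated with Sult1d1 at r = 0.88 and with Sult1b1 at r = 0.87. Once group means were taken away, both correlations were 0.45, so most of the likeness was between groups. Sult2a8 correlated with Sult5a1 at r = 0.94 and with Sult1c2 at r = 0.91 over the libraries, and at 0.12 and 0.58 with group means taken away. Outside the family, the genes whose log2 CPM was most like that of Sult1e1 over the 12 libraries were Tcf25 (r = 0.987), Acsm3 (0.986), Slc37a4 (0.986), Ndufb5 (0.983) and Acot12 (0.982). Their ranges were far narrower. Slc37a4, the glucose-6-phosphate transporter, averaged 463, 382, 191 and 117 CPM in Hypoxia_DEX, Hypoxia_PBS, Normoxia_DEX and Normoxia_PBS. Tcf25 averaged 169, 164, 155 and 146 CPM in the same groups. The most alike genes for the others were Sfxn1 for Sult1d1 (0.982), Ctbs for Sult1b1 (0.976), Dleu2 for Sult2a8 (0.991), Uevld for Sult5a1 (0.978), Rassf4 for Sult1c2 (0.956), Pgrmc1 for Sult1a1 (0.933) and Aen for Sult3a1 (0.93).

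Of 13 other sulfotransferase genes of the mouse, 6 passed the count filter. None of them was called in any comparison, hypoxia in PBS mice included, and in edgeR's test 0 had an unadjusted p under 0.05. The shares of all tested genes called higher and lower in hypoxia were 20.7% and 22.2% under DEX and 18.9% and 16.8% under PBS. For DEX they were 6.13% and 7.05% in hypoxia and 9.38% and 7.4% in normoxia, and the interaction called 1.32%. DESeq2 called 1 of the 6 as higher in hypoxia under DEX, and which gene that was is not recorded. Sult2a1 encodes the hydroxysteroid sulfotransferase. Sult2a1 had 205, 450 and 228 CPM in Hypoxia_DEX, 278, 174 and 33 CPM in Hypoxia_PBS, 47.4, 133 and 79.7 CPM in Normoxia_DEX, and 51.1, 53.6 and 126 CPM in Normoxia_PBS. Every Hypoxia_DEX library lay above every normoxia library, and the spread within groups was also wide: Hypoxia_DEX-2 was the highest of all 12 libraries and Hypoxia_PBS-3 the lowest. The means were 294 ± 135 CPM in Hypoxia_DEX and 86.7 ± 43.3 CPM in Normoxia_DEX (SD, n = 3 each). Sult2a2 had its lowest value in the same library, 40.3 CPM in Hypoxia_PBS-3, and its highest, 178 CPM, in Hypoxia_DEX-2. With group means taken away, Sult2a1 and Sult2a2 correlated at 0.98 and both correlated with Sult2a3 at 0.93 or more, while Sult3a1 correlated with Sult3a2 at 0.89. Sult2a7 stayed between 1.6 and 4.6 CPM. Near-identical Sult2a and Sult3a copies can share reads, so single values of these genes are uncertain. Sult1c1, Sult6b1 and Sult6b2 had no reads, and Sult2a4, Sult2a6, Sult2b1 and Sult4a1 stayed at or under 0.456 CPM in every library.

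**Figure D4:**
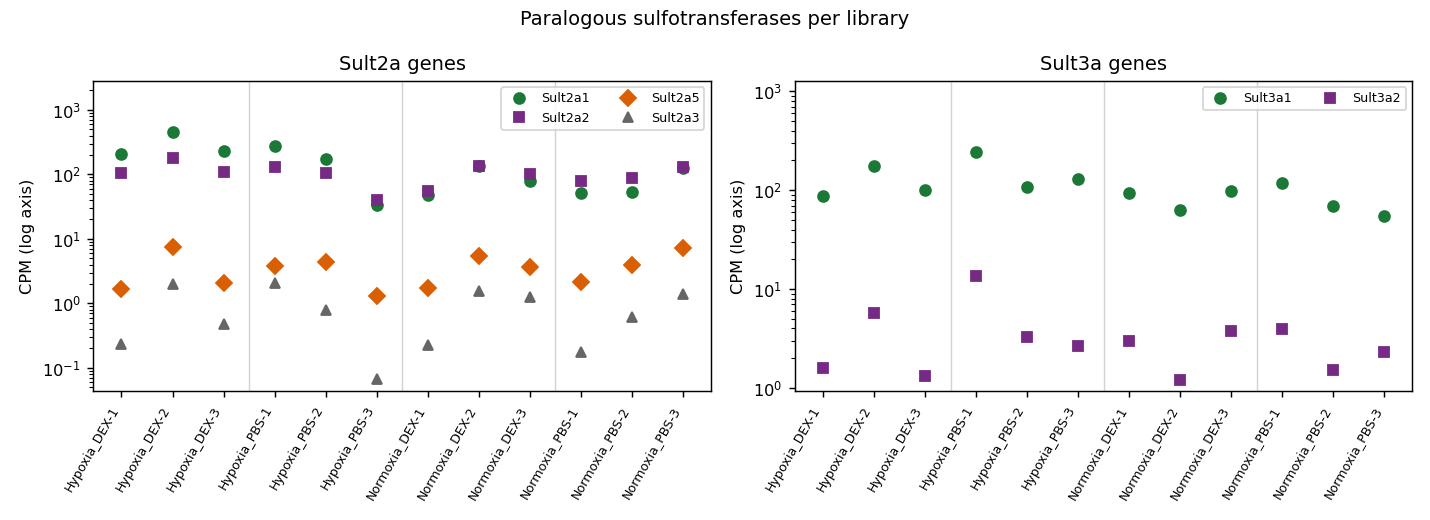
CPM of 4 Sult2a and 2 Sult3a genes in each of the 12 libraries on logarithmic axes. Sult2a1, Sult2a2, Sult2a3 and Sult2a5 are lowest together in Hypoxia_PBS-3, and Sult3a1 and Sult3a2 are highest together in Hypoxia_PBS-1.

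Sulfotransferases depend on PAPS, and 6 genes listed for its supply were measured. They are the synthases Papss1 and Papss2, the Golgi transporters Slc35b2 and Slc35b3, and Bpnt1 and Impad1, which act on the by-product PAP. In hypoxia under DEX 2 rose, against 20.7% of all tested genes, and 1 fell, against 22.2%, with a median log2 fold change of -0.11. The one that fell was Papss2, the main hepatic PAPS synthase, with 238, 239 and 222 CPM in Hypoxia_DEX against 420, 461 and 419 CPM in Normoxia_DEX (log2 fold change -0.90, SE 0.09, adjusted p = 8.85e-06 in edgeR's quasi-likelihood test). The transporters that carry PAPS from the cytosol into the Golgi rose, Slc35b3 by 0.96 on the log2 scale (adjusted p = 3e-05) and Slc35b2 by 0.40 (adjusted p = 0.00752). In PBS mice, too, 2 rose and 1 fell, against 18.9% and 16.8% of all tested genes, and Papss2 had a log2 fold change of -1.23 (adjusted p = 1.43e-06). DEX raised Papss2 in hypoxia, to 238, 239 and 222 CPM in Hypoxia_DEX against 147, 169 and 146 CPM in Hypoxia_PBS (log2 fold change 0.59, SE 0.09, adjusted p = 0.00083). In normoxia Papss2 had 420, 461 and 419 CPM in Normoxia_DEX against 324, 362 and 399 CPM in Normoxia_PBS (log2 fold change 0.26, adjusted p = 0.0657). It passed there with DESeq2 (adjusted p = 0.0385) and without Normoxia_PBS-3 (log2 fold change 0.34, adjusted p = 0.0268), and over all 19 alternatives the adjusted p lay between 0.0268 and 0.236. The difference between these responses, 0.33, did not pass (adjusted p = 0.285). Papss1, the other synthase, had log2 fold changes of -0.16, -0.30 and -0.14 in hypoxia under DEX, DEX in hypoxia and DEX in normoxia, and none passed. Papss2 was highest in Normoxia_DEX and lowest in Hypoxia_PBS, while Sult1e1 was highest in Hypoxia_DEX and lowest in Normoxia_PBS.

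Of 10 measured genes that import sulfate or form it from cysteine and sulfide, 1 rose in hypoxia under DEX, against 20.7% of all tested genes, and 5 fell, against 22.2%. Their median log2 fold change was -0.46, against -0.02 over all tested genes. Ethe1, the mitochondrial persulfide dioxygenase, had 17.3, 16.2 and 15.5 CPM in Hypoxia_DEX against 55, 57.5 and 55.9 CPM in Normoxia_DEX (log2 fold change -1.78, SE 0.17, adjusted p = 1.14e-05). The sulfate transporter gene Slc26a2 fell by 1.43 on the log2 scale (adjusted p = 5.09e-05), and Sqor, the sulfide quinone oxidoreductase, fell by 1.15 (adjusted p = 0.000199). In PBS mice 1 of the 10 rose and 3 fell, against 18.9% and 16.8% of all tested genes. Slc26a2 was not called there, with 5.61, 5.26 and 4.63 CPM in Hypoxia_PBS against 6.43, 7.54 and 6.06 CPM in Normoxia_PBS. DEX raised 1 of the 10 in hypoxia, against 6.13%, and 3 in normoxia, against 9.38%. Slc26a2 rose with DEX in normoxia, at 9.69, 16.6 and 12.4 CPM in Normoxia_DEX against 6.43, 7.54 and 6.06 CPM in Normoxia_PBS (log2 fold change 0.95, adjusted p = 0.00186). Got1, an aminotransferase that also acts on cysteine sulfinate, rose with DEX at both oxygen levels (log2 fold changes 1.18 in hypoxia and 0.99 in normoxia), but these calls were lost in 7 and 11 of 19 alternatives.

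**Figure D5:**
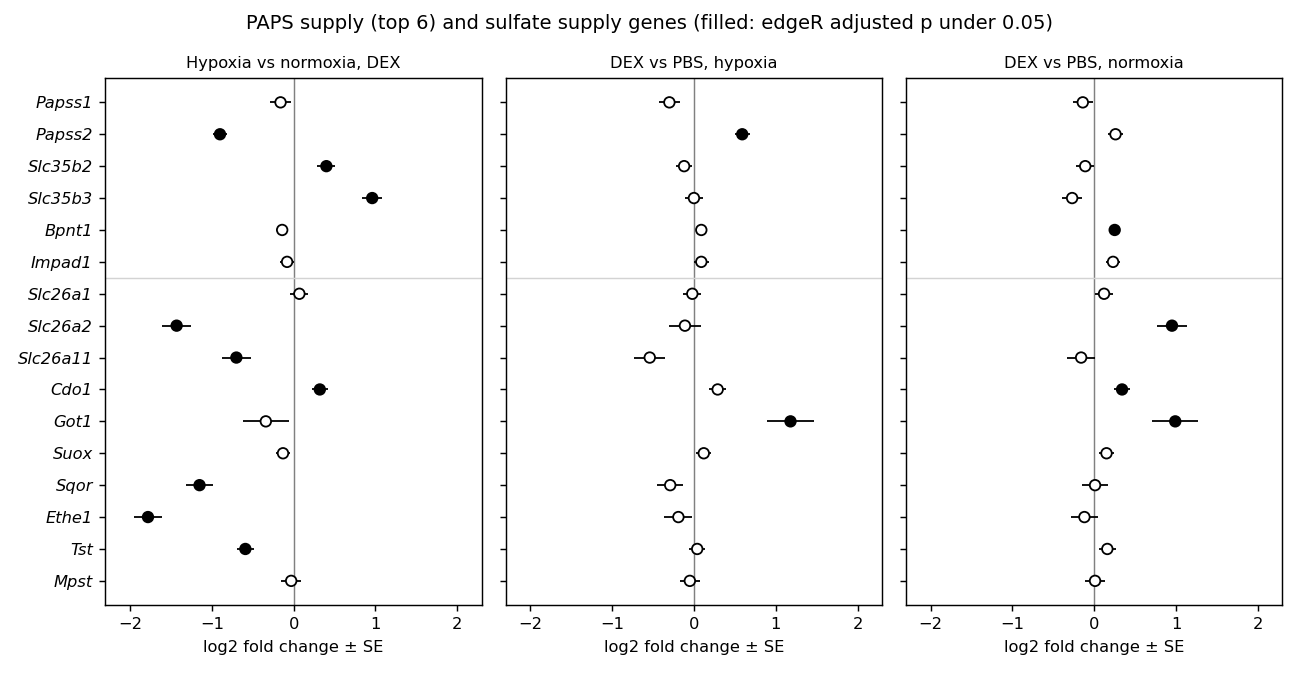
Fitted log2 fold changes ± SE of 6 PAPS supply genes and 10 sulfate supply genes in 3 comparisons, filled where edgeR's adjusted p was under 0.05. In hypoxia under DEX, Papss2 sits at -0.90 and Ethe1 at -1.78, and with DEX in hypoxia Papss2 sits at 0.59.

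Among 12 measured sulfatases and their activators, 1 rose and 4 fell in hypoxia under DEX, against 20.7% and 22.2% of all tested genes. Their median log2 fold change was -0.03. The steroid sulfatase gene Sts was also sought but had no matching identifier in the counts. The list thus gives no view of the removal of sulfate from steroids by that enzyme. In hypoxia under PBS 2 rose and 2 fell, against 18.9% and 16.8%. Arsg, a lysosomal arylsulfatase, had 35.4, 28.6 and 37.5 CPM in Hypoxia_DEX against 13.8, 13.3 and 17.5 CPM in Normoxia_DEX (log2 fold change 1.19, adjusted p = 0.00191 in edgeR's test). Sulf1 and Arsa fell, with adjusted p of 0.0274 and 0.0268, and each call was lost in 5 of 19 alternatives. DEX raised 1 of the 12 in hypoxia, against 6.13% of all tested genes, and 2 in normoxia, against 9.38%, with Sulf2 among both, and the Sulf2 call in hypoxia was lost in 6 of 19 alternatives.

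Of 11 measured genes for estrogen receptors and for other enzymes acting on estrogens, 4 rose and 6 fell in hypoxia under DEX, against 20.7% and 22.2% of all tested genes, and 3 rose and 5 fell under PBS, against 18.9% and 16.8%. The median log2 fold change under DEX was -0.46, against -0.02 over all tested genes. Hsd17b6 had 31.2, 22.2 and 29.8 CPM in Hypoxia_DEX against 179, 158 and 109 CPM in Normoxia_DEX (log2 fold change -2.42, SE 0.21, adjusted p = 1.1e-05). Cyp1a2, which hydroxylates estradiol, fell by 1.4 on the log2 scale (adjusted p = 3.49e-05), and Hsd17b10, a mitochondrial dehydrogenase, rose by 1.89 (adjusted p = 4.82e-07). DEX raised 1 and lowered 1 of the 11 in hypoxia, against 6.13% and 7.05% of all tested genes. The one raised was Hsd17b13, a lipid droplet enzyme, and its call was lost in 11 of 19 alternatives. In normoxia DEX raised 2, against 9.38%. They were Esr1, the estrogen receptor (log2 fold change 0.42, adjusted p = 0.0124), and Hsd17b2, which oxidizes estradiol (0.37, adjusted p = 0.009). Each of these calls was lost without Normoxia_DEX-3.

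Receptors and transcription factors known to act on sulfotransferase genes made a list of 14, all measured, of which 5 rose and 4 fell in hypoxia under DEX, against 20.7% and 22.2% of all tested genes. Under PBS 5 rose and 3 fell, against 18.9% and 16.8%. Nr1i3, which encodes the constitutive androstane receptor, had 427, 407 and 432 CPM in Hypoxia_DEX against 126, 140 and 143 CPM in Normoxia_DEX (log2 fold change 1.63, SE 0.18, adjusted p = 3.07e-05). With DEX 2 of the 14 rose and 2 fell in hypoxia, against 6.13% and 7.05%, and 3 rose and 3 fell in normoxia, against 9.38% and 7.4%. The count that fell in hypoxia was 1 with RLE scaling, DESeq2, no count filter, the replicate block, only the compared groups, or Hypoxia_DEX-1 and Hypoxia_DEX-3 summed. Nr1i2, the pregnane X receptor gene, had 137, 133 and 137 CPM in Hypoxia_DEX against 95.4, 84 and 75.2 CPM in Hypoxia_PBS (log2 fold change 0.67, SE 0.08, adjusted p = 0.000169). It was also higher with DEX in normoxia, without overlap, at 107, 101 and 105 CPM in Normoxia_DEX against 69.4, 65.2 and 73.2 CPM in Normoxia_PBS. Nfe2l2, which encodes the antioxidant regulator NRF2, fell with DEX by 0.64 in hypoxia and by 0.69 in normoxia on the log2 scale (adjusted p = 0.00325 and 0.00124).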

How the data were processed

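The data were raw read counts per gene for 12 mouse liver libraries, whole numbers as deposited by the authors with no normalization. The submitters' processing notes list Trimmomatic, HISAT2 2.0.4, SAMtools, featureCounts, DESeq2 and the mm10 build. Libraries came from a stranded mRNA kit, per the labels' protocols, and neither the annotation nor the strand setting of the counting is stated there. Groups came from the labels. Their protocol text names the normal-oxygen mice a hypoxia group in 1 place, and the titles, which say normoxia, were followed.

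Of 54838 identifiers, 54723 had a symbol. R 4.3.3 and edgeR 4.0.16 were used to fit the counts: filterByExpr, TMM scaling, robust estimateDisp and glmQLFit, then glmQLFTest. Each group had its own mean over 12 libraries, which left 8 residual degrees of freedom. Benjamini-Hochberg adjustment ran over 13861 genes per comparison, with a threshold of 0.05. Likeness and principal components used log2 CPM with a prior count of 2, components on the 1000 most variable genes. The fit was tested on simulated data in which 200 genes were changed in Hypoxia_DEX. In the real libraries 2865 genes were called higher and 3078 lower in hypoxia under DEX. The simulation therefore does not check the fit where so many genes change. Depth was 12464687 to 24715995 counts, and low counts limit Sult1e1 in Normoxia_PBS, Sult1c2 and Sult5a1.

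The alternatives tried were DESeq2 1.42.0, RLE scaling, a fit without the count filter, a block for the replicate number, a fit of the compared groups only, each library left out in turn, Hypoxia_DEX-1 summed with Hypoxia_DEX-3, and a fit without Hypoxia_DEX-2 and Hypoxia_PBS-1. The members, gene lists, naming rule and alternatives were chosen with earlier results of these data known. The naming rule took all 8 members, every PAPS supply gene, other sulfotransferases by level, up to 3 called genes with the largest changes per other list and comparison, and the most alike genes by Pearson r. Of these, the text gives those with larger changes, and some are not reported here. Gene positions are from GENCODE M21 on mm10 and promoters from RefSeq on GRCm38.p6. Figures were drawn with matplotlib 3.10.9.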

Additional observations from a re-analysis of the deposited data

Results flagged for a closer look

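Ahr, the aryl hydrocarbon receptor gene and 1 of the 14 regulators listed, responded to DEX differently at the 2 oxygen levels by the test of the interaction itself, with a difference of -1.39 on the log2 scale (SE 0.17, adjusted p = 0.00137 in edgeR's quasi-likelihood test). In hypoxia it had 87.2, 102 and 82.1 CPM in Hypoxia_DEX and 81.9, 109 and 91.7 CPM in Hypoxia_PBS, which overlapped. In normoxia it had 181, 206 and 191 CPM in Normoxia_DEX against 66.9, 78.2 and 83.9 CPM in Normoxia_PBS, a rise of 1.33 on the log2 scale (adjusted p = 4.4e-06), higher in 3 of 3 libraries. No sulfotransferase passed the same interaction test.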

How the results depend on the processing

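The 6 sulfotransferase calls for hypoxia under DEX kept their direction and side of the threshold under all 19 alternatives, with Sult1e1 between 4.42 and 5.63, Sult1b1 between 1.11 and 1.31, Sult1d1 between 0.72 and 0.91, Sult2a8 between -1.19 and -1.03, Sult5a1 between -1.71 and -1.28 and Sult1c2 between -1.06 and -0.7 on the log2 scale. Over all genes given with a test, 1841 of 1961 alternative values kept direction and side, 76 lost the call, 9 gained one and 35 changed sign. The causes were not tested. With group means taken away, same-numbered libraries of different groups correlated at -0.151 to 0.39 (median 0.014, over 18 pairs). Libraries of different groups and numbers correlated at -0.424 to 0.303 (median -0.014, over 36 pairs). Whether the replicate numbers mark pairs or batches was not tested. With the replicate block 1 sulfotransferase rose with DEX in normoxia instead of 2, since Sult1e1 was lost at 3.6 (adjusted p = 0.0579), and no other sulfotransferase call changed. With no count filter that count was also 1, and with Hypoxia_DEX-2 and Hypoxia_PBS-1 left out the count for DEX in hypoxia was 2 instead of 1. Leaving out 1 library gave 0 to 2 for DEX in hypoxia and 1 to 2 for DEX in normoxia. Over all genes, the interaction called 45 higher and 138 lower. It called 119 and 254 with DESeq2, 85 higher with no count filter, 19 and 51 with Hypoxia_DEX-1 and Hypoxia_DEX-3 summed, 153 and 322 with Hypoxia_DEX-2 and Hypoxia_PBS-1 left out, and 17 to 93 and 46 to 213 with 1 library left out. DEX in hypoxia called 977 genes lower, against 572 with only the compared groups and 516 with the pair summed. With 1 library left out it called 470 to 1251 lower and 535 to 1215 higher, against 850.

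Values near 0 changed sign without passing the test. With Hypoxia_DEX-1 and Hypoxia_DEX-3 summed, Sult1a1 was 0.06 for DEX in hypoxia and 0.07 for the interaction, and Slc35b2 was 0.02 for the interaction. With Hypoxia_DEX-2 and Hypoxia_PBS-1 left out, the interaction was -0.08 for Sult1c2, 0.01 for Slc35b2 and 0.06 for Impad1, and Impad1 was -0.05 for hypoxia under PBS. Leaving out 1 library gave these ranges for DEX in hypoxia: Sult1a1 -0.25 to 0.17, Sult5a1 -0.32 to 0.11, Sult3a1 -0.75 to 0.03 and Sult1c2 -0.33 to 0.04. For DEX in normoxia they were -0.12 to 0.47 for Sult3a1, -0.14 to 0.04 for Sult1b1, -0.01 to 0.14 for Sult2a8 and -0.19 to 0.01 for Slc35b2. For the interaction they were -0.24 to 0.18 for Sult1a1, -0.06 to 0.35 for Sult1c2 and -0.14 to 0.08 for Slc35b2, and for hypoxia under PBS -0.05 to 0.13 for Impad1 and -0.01 to 0.07 for Bpnt1. Depth limits Sult1e1 in Normoxia_PBS, where it had 4 to 15 reads per library.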
